A study of Oryzias melastigma with 6 samples.

Results

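Female brain was set against male brain in the marine medaka, Oryzias melastigma, a small saltwater fish used in laboratories as a model of marine species. These are 2 of the 6 small RNA libraries of a series on brain, liver and gonad of both sexes. Each brain library was made from tissue pooled from sexually mature, breeding fish of 1 sex that carried no labelled treatment or mutation, so that sex is the labelled difference between them. The number and age of the pooled fish do not stand in the labels. The female brain library listed 1150 exact sequences of 20 to 23 nt and the male brain library 1127, together 1251 of the 1571 different sequences listed in the whole series.

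MicroRNAs (miRNAs) are short RNAs cut from a hairpin precursor. One arm of the hairpin, named 5p or 3p, is loaded into an Argonaute protein, where bases 2 to 8, the seed, pair with target messenger RNAs and lower their output. Brains of vertebrates are known for a small set of very abundant families, among them let-7, miR-9, miR-124 and miR-128, and the 3′ end of a mature miRNA often varies by 1 or a few bases while the 5′ end, which sets the seed, varies less.

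The sequences on which the results turn are shown 5′ to 3′ with T for U, as deposited, and with the seed in capitals. The first 5 lead both brains or show the main contrasts between them, and the sequences after them belong to arms with the most unequal levels. Of the first 5, all but the miR-29-3p form with A at position 18 are the highest of their arms over both brains. That form was the highest of its arm in male brain and had no entry in female brain.
miR-9-3p: tAAAGCTAgataaccgaaagta
miR-153-3p: tTGCATAGtcacaaaagtgatc
let-7-5p: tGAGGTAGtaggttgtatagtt
miR-29-3p, G at position 18: tAGCACCAtttgaaatcggtgtt
miR-29-3p, A at position 18: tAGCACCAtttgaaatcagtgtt
miR-205-5p: tCCTTCATtccaccggagtctga
miR-19-3p: tGTGCAAAtccatgcaaaactg
miR-126-5p: cATTATTActtttggtacgcg
miR-451-5p: aAACCGTTaccattactgagttt
miR-96-5p: tTTGGCACtagcacatttttgct

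The deposited values behaved as RPM, the reads of a sequence scaled to the total of its library, and implied totals of 22.652 M reads (M, mega) for female brain and 20.247 M reads for male brain. Sequences of conserved miRNAs, from 121 family arms in female brain and 118 in male brain, held 23.3% of the implied reads of female brain, with a Wilson 95% interval of 23.28% to 23.315%. In male brain they held 21.2% (21.132% to 21.168%). The lowest listed value was 8.03 RPM in female brain and 6.03 RPM in male brain, so a sequence that a library does not list was read as lying below its minimum. With 1 pooled library per sex there is no replicate check, and no p-value or SD can be given. Each ratio of female to male RPM carries an exact conditional binomial 95% interval that covers counting error only, and PCR reads without molecular identifiers are not independent molecules.

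Both brains listed nearly the same sequences. The 1026 shared sequences were 89.2% of the female list and 91.0% of the male list, and they held 99.1% of the listed RPM in female brain and 96.9% in male brain. Across these 1026 sequences the log2 RPM values had a Pearson r of 0.98, a description over sequences of 1 pair of libraries, which are not independent replicates. Most shared sequences stood higher in female brain (832 of 1026), with a median ratio of 1.23 and a 5th to 95th percentile range of 0.85 to 2.22. At least 2-fold higher values were found in female brain for 72 shared sequences (7.02%) and at least 2-fold lower values for 0 (0%). Because the listed values of female brain lay higher as a whole, the ratios depend on the scale. Equal sums of miRNA values multiply the female values by 0.908 (a log2 shift of -0.14) and median-of-ratios scaling multiplies them by 0.812 (-0.30), so that an RPM ratio between 1 and 1.23 falls below 1 under the second of these scales.

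Summed over each arm, 87 arms reached 50 RPM in at least 1 brain. Their median female to male ratio was 1.19, and 69 of the 87 lay within 1.5-fold. In female brain 17 arms were at least 1.5-fold higher (19.5%) and 1 arm, miR-96-5p, was at least 1.5-fold lower (1.15%). Of the 17, miR-126-5p, miR-145-5p, miR-301-3p and miR-375-3p reached 50 RPM in female brain alone, so they entered the count through the brain where they are higher. At 2-fold, 4 arms were higher in female brain (4.6%) and 0 were lower (0%). The split of higher to lower arms at 1.5-fold moved to 9 and 4 when both brains had equal miRNA sums, and to 5 and 4 under median-of-ratios scaling. The 4 lower arms include miR-29-3p, whose sum rests on 1 sequence described below. Over its shared sequences alone, with both scale factors left as they were, the splits are 9 and 3, and 5 and 3. The factor for equal miRNA sums still counts that sequence in male brain, and the split was not recomputed without it. On that scale miR-126-3p passed 1.5-fold narrowly, at 1.503. Of the 87 arms, 17 changed their side of 1 at equal miRNA sums and 37 under median-of-ratios scaling. The 5 arms that stayed at least 1.5-fold higher in female brain on all 3 scales were miR-205-5p, miR-19-3p, miR-126-5p, miR-451-5p and miR-190-5p. All but miR-126-5p reached 50 RPM in both brains.

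**Figure D1:**
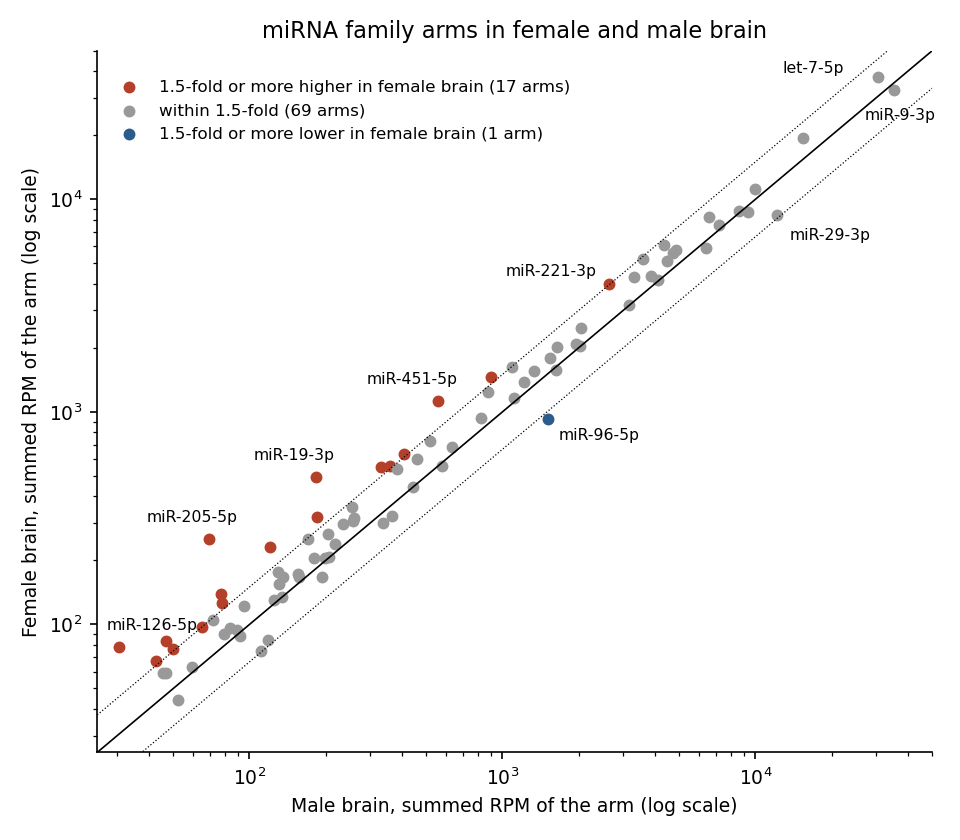
Summed RPM of each of the 87 family arms with at least 50 RPM, female brain on the vertical axis against male brain on the horizontal axis, both on log scales. The solid line marks equal values and the dotted lines 1.5-fold; 17 arms lie on or above the upper dotted line, miR-96-5p lies below the lower one, and miR-29-3p lies just inside it.

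The largest ratio belonged to miR-205-5p, an epithelial miRNA of skin and other surface tissues. Its sum was 252.5 RPM in female brain and 69.0 RPM in male brain, 3.66-fold higher in female brain (95% interval 3.45 to 3.88), and each of its 4 shared sequences was between 3.18 and 3.52-fold higher there. Its most abundant sequence had 112.5 RPM in female brain and 35.2 RPM in male brain. The other arm on the epithelial and skin list, miR-203-3p, was listed in female brain alone, at 43.0 RPM over 3 sequences. If its top sequence, at 23.7 RPM in female brain, lay below the male minimum, it was at least 3.93-fold higher in female brain. The opposite arm, miR-203-5p, was listed in both brains, at 31.1 RPM in female brain and 11.2 RPM in male brain (2.77). The summed epithelial and skin markers were 295.5 RPM in female brain and 69.0 RPM in male brain. Their part in other differences between the brains was not tested.

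The red cell and endothelial arms were also higher in female brain. miR-451-5p, which matures in red cells by Argonaute cleavage without Dicer, had 1131 RPM in female brain and 554.2 RPM in male brain (ratio 2.04, 1.996 to 2.09). All 5 of its shared sequences were higher in female brain, by 1.81 to 2.39-fold. miR-144-3p, cut from the same primary transcript in vertebrates, had 635.3 RPM in female brain and 409.3 RPM in male brain (1.55, 1.51 to 1.60). The summed red cell markers were 1805 RPM in female brain and 986.8 RPM in male brain. miR-126, made from an intron of an endothelial gene, was higher in female brain from both arms. Its 3p arm had 549.4 RPM in female brain and 331.9 RPM in male brain (1.66), and its 5p arm 78.4 RPM in female brain and 30.6 RPM in male brain (2.57). For miR-126-5p 3 sequences were listed in female brain and 1 in male brain, and over the shared sequence the ratio was 1.98. Likewise the ratio of miR-451-5p over its shared sequences was 1.99, so that with shared sequences alone 2 arms in place of 4 passed 2-fold. In pooled tissue, more cells of a type and more RNA per cell cannot be told apart.

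Other markers of cells that a dissected brain could carry along divided. miR-1-3p, the muscle miRNA, had 319.3 RPM in female brain and 185.7 RPM in male brain (1.72). miR-145-5p, of vascular smooth muscle, had 76.4 RPM in female brain and 49.9 RPM in male brain (1.53), whereas miR-143-3p, its cluster partner, had 300.4 RPM in female brain and 336.1 RPM in male brain (0.89). Of the leukocyte markers, miR-142-3p had 130.01 RPM in female brain and 125.2 RPM in male brain, and miR-146-5p 84.1 RPM in female brain and 118.1 RPM in male brain (0.71). Among leukocyte arms below 50 RPM the ratio was 1.91 for miR-150-5p, 1.73 for miR-142-5p and 1.14 for miR-223-3p, and miR-155-5p was unlisted in both brains. The summed leukocyte markers were 253.5 RPM in female brain and 269.3 RPM in male brain. miR-122-5p, the defining liver miRNA, and miR-202, a gonadal miRNA, were unlisted in both brains. The other liver marker, miR-194-5p, was listed in female brain alone, at 8.61 RPM, near the lowest value listed there (8.03 RPM). It had 7055 RPM in female liver and 6962 RPM in male liver. miR-216-5p and miR-217-5p, which mark exocrine pancreas in mammals, were high in both brains at a sum of 11875 RPM in female brain and 12511 RPM in male brain.

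**Figure D2:**
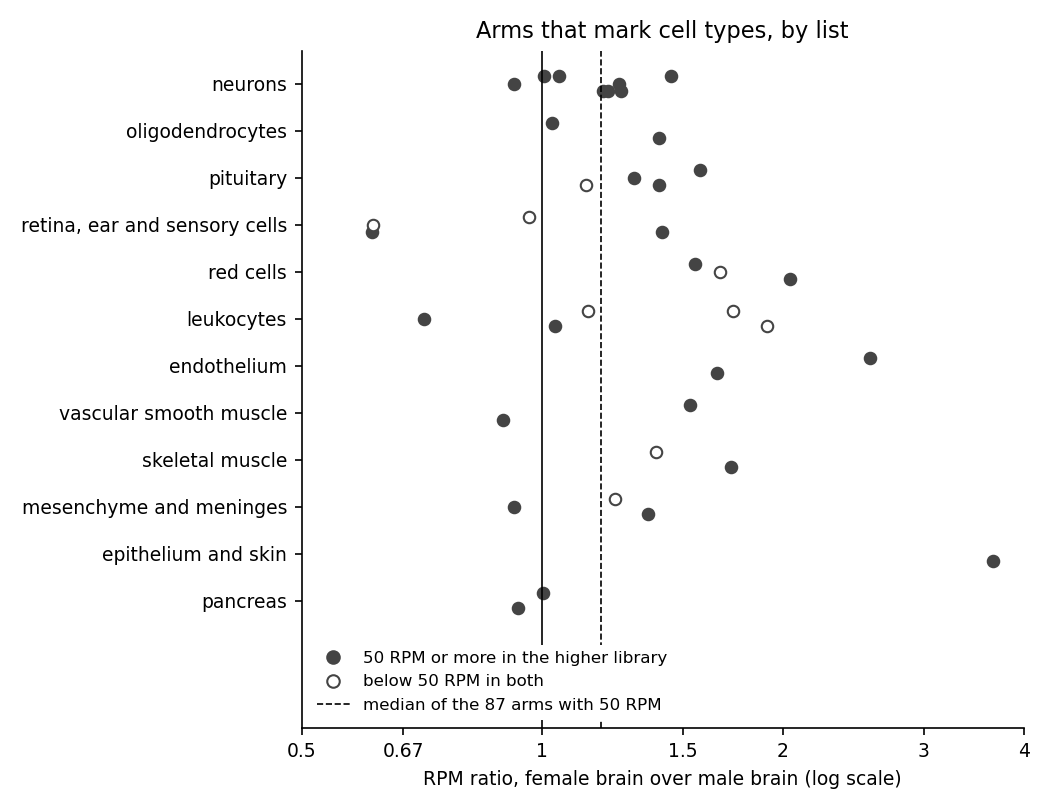
Ratio of RPM in female brain over male brain (log scale) for each marker arm listed in both brains, by cell type list, with filled points for arms that reached 50 RPM in at least 1 brain. The solid line marks equal values and the dashed line the median ratio of 1.19 over 87 arms. Red cell arms, endothelial arms and miR-205-5p, the only point of the epithelial list, lie to the right of it. miR-96-5p and miR-183-5p, which both lie at 0.61, lie to the left. Small vertical offsets within a list only separate points.

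The labelled tissue matched its markers: the 8 neuronal arms summed to 76768 RPM in female brain and 70994 RPM in male brain. None of the 8 passed 1.5-fold, and their median ratio of 1.198 stood beside 1.19 over all 87 arms. miR-153-3p, enriched in vertebrate nervous tissue, had 19331 RPM in female brain and 15491 RPM in male brain (1.25, 1.24 to 1.25). miR-128-3p, a neuronal miRNA that restrains excitability in mice, had 8238 RPM in female brain and 6563 RPM in male brain (1.26). miR-124-3p, which represses non-neuronal genes in neurons, had 5781 RPM in female brain and 4860 RPM in male brain, a ratio of 1.19 that is below 1 under median-of-ratios scaling. miR-138-5p, known from dendritic spines in rodents, had 2045 RPM in female brain and 2035 RPM in male brain. Of the oligodendrocyte arms, miR-338-3p had 8850 RPM in female brain and 8619 RPM in male brain (1.03), and miR-219-5p, which promotes oligodendrocyte maturation, 357.4 RPM in female brain and 255.2 RPM in male brain (1.40).

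In the wider neuronal list of 28 arms, 23 had at least 50 RPM, of which 2 (8.70%) were at least 1.5-fold higher in female brain and 0 lower, against 19.5% and 1.15% over all 87 arms. The 2 were miR-135-5p and miR-190-5p. miR-135-5p had 1460 RPM in female brain and 897.7 RPM in male brain (1.63). Its ratio was 1.48 at equal miRNA sums and 1.32 under median-of-ratios scaling. At least 2-fold higher values were found in female brain for 9 of its 15 shared sequences, which are forms of 1 family, against 7.02% of all 1026 shared sequences. Its most abundant sequence had 660.6 RPM in female brain and 513.1 RPM in male brain. miR-190-5p had 230.4 RPM in female brain and 120.7 RPM in male brain (1.91). The median ratio of the 23 arms was 1.18, against 1.19 over all 87. The 3 pituitary markers with at least 50 RPM had a median ratio of 1.40. Of these 3, 1 (33.3%) was at least 1.5-fold higher in female brain, against 19.5% over all 87 arms, and 0 were at equal miRNA sums. miR-7-5p had 6096 RPM in female brain and 4354 RPM in male brain (1.40), and miR-375-3p, also known from pancreatic islets, 67.1 RPM in female brain and 42.6 RPM in male brain (1.57).

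Among 21 arms linked to sex steroids or gonads in the literature, 18 were listed and 14 had at least 50 RPM. In female brain 3 of the 14 (21.4%) were at least 1.5-fold higher, near the 19.5% of all 87 arms, and 0 were lower. Their median ratio was 1.25, beside 1.19 over all 87. The 3 were miR-19-3p, miR-221-3p and miR-222-5p, which stood at 1.501. At equal miRNA sums 1 of the 14 was at least 1.5-fold higher in female brain. miR-221-3p had 3981 RPM in female brain and 2647 RPM in male brain (1.504, 1.49 to 1.52), and miR-222-3p, which shares its seed and its cluster, 598.4 RPM in female brain and 458.4 RPM in male brain (1.31). Over its shared sequences alone miR-221-3p had a ratio of 1.4945, within 1.5-fold. miR-21-5p had 5892 RPM in female brain and 6399 RPM in male brain (0.92). let-7-5p, the highest family of female brain, had 37500 RPM in female brain and 30529 RPM in male brain (1.23), a ratio that median-of-ratios scaling brings to just below 1.

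The let-7 family was not uniform. Sequences that start with tGAGGTAGtaggttgtatag summed to 12896 RPM in female brain and 9758 RPM in male brain (1.32). The member with the start tGAGGTAGtagattgaatag had 1099 RPM in female brain and 758.7 RPM in male brain (1.45). The member with the start tGAGGTAGtagtttgtgctg ran the other way, with 4831 RPM in female brain and 5362 RPM in male brain (0.90). All 3 have the seed GAGGTAG, and the members differ outside it.

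The 17 to 92 cluster encodes several seeds in 1 transcript, and the family arms that hold its products differed in ratio. These sums include paralogues, so they cannot be read as the output of 1 transcript. miR-19-3p had 495.8 RPM in female brain and 183.4 RPM in male brain (2.70, 2.60 to 2.81). All 9 of its shared sequences, which are forms of 1 family, were higher in female brain. At least 2-fold higher were 8 of them, against 7.02% of all 1026 shared sequences. The opposite arm, miR-19-5p, had 1247 RPM in female brain and 878.9 RPM in male brain (1.42). miR-92-3p had 138.5 RPM in female brain and 76.9 RPM in male brain (1.80). By contrast miR-17-5p had 2090 RPM in female brain and 1961 RPM in male brain (1.07), and miR-18-5p had a ratio of 1.01, both below 1 under median-of-ratios scaling.

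Among the 87 arms with at least 50 RPM, the lowest ratio was that of miR-96-5p, a miRNA of sensory hair cells and photoreceptors that is made in 1 transcript with miR-182 and miR-183. It had 926.4 RPM in female brain and 1512 RPM in male brain (0.61, 0.60 to 0.62), and both of its shared sequences were lower in female brain. miR-183-5p stood at 13.1 RPM in female brain and 21.3 RPM in male brain (0.61), while miR-182-5p had 10.5 RPM in female brain and 10.9 RPM in male brain (0.96). Under median-of-ratios scaling the ratio of miR-96-5p was 0.50. miR-204-5p, known from retinal pigment epithelium and choroid plexus, had 730.4 RPM in female brain and 517.4 RPM in male brain (1.41). miR-187-3p followed miR-96-5p with 74.96 RPM in female brain and 110.8 RPM in male brain (0.68).

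The listed sequences of miR-29-3p, a repressor of extracellular matrix genes, summed to 8447 RPM in female brain and 12220 RPM in male brain (0.69). Whether this ratio lies below or above 1 depends on 1 sequence. The 23-nt form with A at position 18 had 5976 RPM in male brain, 48.9% of the family there, and had no entry in female brain. The next highest sequence listed in male brain alone had 16.7 RPM. Without this form the family had 8447 RPM in female brain and 6244 RPM in male brain (1.35). All 18 miR-29-3p sequences listed in both brains were higher in female brain, by 1.05 to 2.31-fold. They are forms of 1 family, and of all 1026 shared sequences 832 were higher in female brain. Those of the 18 with a ratio below 1.23 fall below 1 under median-of-ratios scaling. The 23-nt form with G at position 18, which differs from the unlisted one by G18A counted from the 5′ end, had 6306 RPM in female brain and 4941 RPM in male brain (1.28). Shorter forms of the A type were also listed in female brain: the 22-nt form that lacks the last T had 398.2 RPM in female brain and 246.7 RPM in male brain (1.61), and the 22-nt form that lacks the first T 347.6 RPM in female brain and 224.7 RPM in male brain (1.55). The unlisted sequence was present in the files of the 4 libraries outside brain.

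Female brain also listed this miR-29-3p form with an unread base.
miR-29-3p with base 16 unread: tAGCACCAtttgaaancagtgtt
Such sequences, with N at position 16, numbered 47 in female brain (1191 RPM in all) and 0 in male brain. For 46 of the 47 the fully read form was listed too, and the form with N stood at 0.264% to 1.01% of it (median 0.80%). The miR-29-3p form with N had 60.1 RPM in female brain, 7.48 times the lowest value listed there. At the percentages of the other 46 sequences, 60.1 RPM stands beside 5954 to 22802 RPM of a fully read form, and at their median beside 7511 RPM. Of the other 46 forms with N, 0 stood above their fully read form. Why the fully read miR-29-3p form has no entry in female brain was not tested. In the family sums and in the scale of equal miRNA sums it counted as 0 for female brain. For miR-29-3p the direction of the family sum is therefore not given, and the values with and without this sequence stand side by side.

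**Figure D3:**
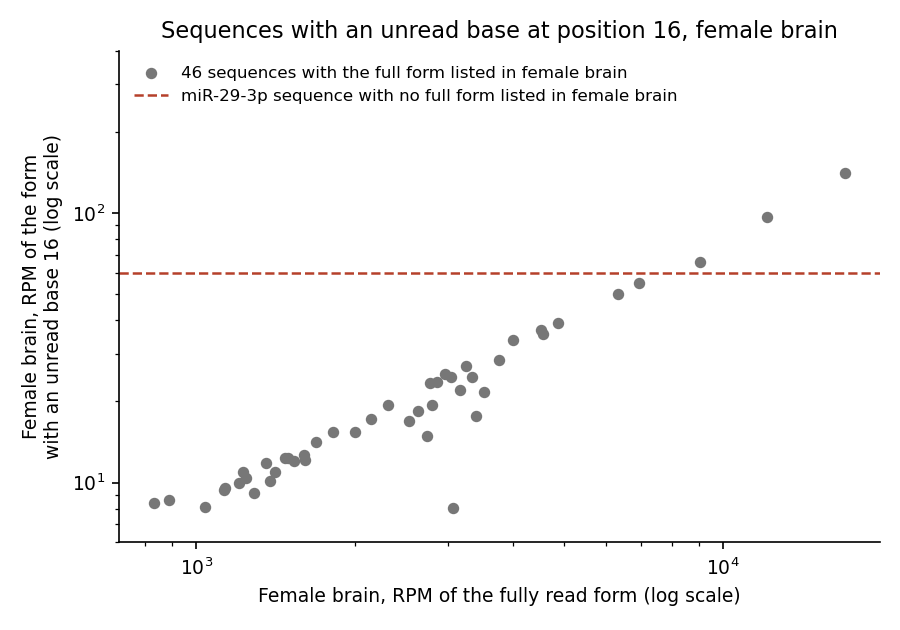
RPM in female brain of 46 sequences with base 16 unread (vertical axis) against RPM of the fully read form in female brain (horizontal axis), both on log scales, 1 point for each sequence. The dashed line at 60.1 RPM marks the miR-29-3p sequence whose fully read form has no entry in female brain; the points meet it between full forms of about the level of the highest let-7-5p and miR-338-3p sequences.

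Length profiles of the miRNA reads were close. In female brain 7.35% of miRNA RPM were 20 nt, 22.8% were 21 nt, 53.3% were 22 nt and 16.6% were 23 nt, against 7.44%, 21.5%, 52.6% and 18.4% in male brain. The mean length was 21.792 nt in female brain and 21.820 nt in male brain, a difference of -0.028 nt. Without the miR-29-3p sequence listed in male brain alone, the means were 21.792 nt in female brain and 21.786 nt in male brain, so that the sign of the difference turned on that sequence. Of 168 groups of sequences that share their first 20 bases, 99 were longer in female brain and 69 were shorter. In 146 of the 168 the mean length differed by under 0.1 nt. The shift reached 0.25 nt in 3 of the 168. The miR-29-3p start with A at position 18 was shorter in female brain because its 23-nt form is unlisted there, and 2 other starts were longer.

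In both of these the longer forms had the higher ratios, with the bases added after the first 20 shown in capitals.
miR-17-5p family, 21 nt: aaaagtgctgtttgtgcaggT
miR-17-5p family, 23 nt: aaaagtgctgtttgtgcaggTAG
miR-454-3p, 20 nt: tagtgcaatattgcttatag
miR-454-3p, 22 nt: tagtgcaatattgcttatagGG
The 21-nt miR-17-5p form had 69.4 RPM in female brain and 59.9 RPM in male brain (1.16), and the 23-nt form 37.3 RPM in female brain and 14.6 RPM in male brain (2.55). The 20-nt form of this start was listed in male brain alone, at 7.36 RPM, below the female minimum. The 20-nt miR-454-3p form had 44.4 RPM in female brain and 38.2 RPM in male brain (1.16), and its 22-nt form 30.3 RPM in female brain and 11.4 RPM in male brain (2.67). Its 23-nt form broke the order, with 10.7 RPM in female brain and 6.82 RPM in male brain (1.57). With sequences listed in both brains alone, only 1 start shifted by 0.25 nt or more. The forms of miR-222-3p were not ordered by length. The 21-nt form had 184.7 RPM in female brain and 181.8 RPM in male brain (1.02). The 23-nt form that ends in TCT had 230.9 RPM in female brain and 136.7 RPM in male brain (1.69), whereas those that end in TCA and TGT had ratios of 1.26 and 0.93.

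The 3′ ends of miR-9-3p, the highest family of male brain, showed a contrast inside a family sum of 32512 RPM in female brain and 35282 RPM in male brain (0.92). The forms are shown with their last 3 bases in capitals.
miR-9-3p full form: taaagctagataaccgaaaGTA
miR-9-3p without the last base: taaagctagataaccgaaAGT
miR-9-3p from 1 base earlier, full: ataaagctagataaccgaaaGTA
miR-9-3p from 1 base earlier, without the last base: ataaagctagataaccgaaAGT
miR-9-3p with G at position 11, full: taaagctagagaaccgaaaGTA
miR-9-3p with G at position 11, without the last base: taaagctagagaaccgaaAGT
The full form had 17007 RPM in female brain and 19961 RPM in male brain (0.85, 0.848 to 0.856). The form without the last base had 1129 RPM in female brain and 847.6 RPM in male brain (1.33, 1.31 to 1.36). From the start 1 base earlier, the full form had 1136 RPM in female brain and 1236 RPM in male brain (0.92), and the form without the last base 2777 RPM in female brain and 1933 RPM in male brain (1.44). In the variant T11G, the full form had 3984 RPM in female brain and 5145 RPM in male brain (0.77), and the form without the last base 387.2 RPM in female brain and 268.6 RPM in male brain (1.44). For all 3 starts the form 1 base shorter was higher in female brain and the full form lower. Forms 2 bases shorter were again lower in female brain for all 3, with ratios of 0.87, 0.87 and 0.73. Other ends were higher too. A further A after the full form went with ratios of 1.08 from the main start and 1.14 in T11G. A further T from the main start went with 1.28. From the start 1 base earlier, the form 3 bases shorter had 1.09 and the 23-nt form that ends in GTT 1.32. The T11G form with T before the final GTA had 0.87. Of these, 1.08, 1.09 and 1.14 fall below 1 under median-of-ratios scaling. Under both other scales the form 1 base shorter stays above 1 and the full form below 1.

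**Figure D4:**
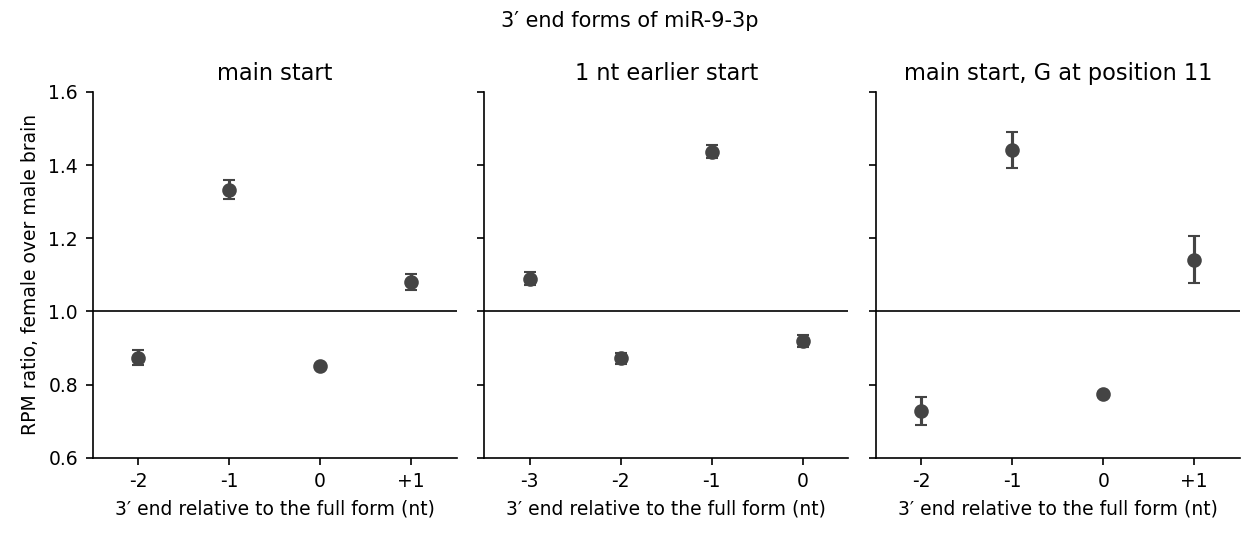
RPM ratio of female brain over male brain for 3′ end forms of miR-9-3p from its 3 most abundant starts, by end position relative to the full form in nt; bars are exact binomial 95% intervals that cover counting error only. In each panel the form 1 nt shorter lies between 1.33 and 1.44, while the full form lies between 0.77 and 0.92.

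Other arms divided. In 45 arms with a listed form 1 nt shorter than the top form, at 20 RPM or more in both brains, the share of the shorter form relative to the top form was larger in female brain in 26 and smaller in 19. The median of the female share over the male share was 1.04. It was 1.80 for miR-135-5p, 1.66 for miR-26-5p and 1.51 for miR-9-5p, but 0.80 for miR-124-3p, 0.77 for miR-16-5p and 0.69 for miR-375-3p. The start of miR-9-3p also differed: forms with another 5′ end than the main one made up 22.4% of the arm in female brain and 18.3% in male brain, which moves the seed by 1 or more bases in those reads.

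The 5p and 3p sums of a family were compared where both reached 50 RPM in both brains, which holds for 9 families. Each sum covers all paralogues of its family. A change between paralogues and a change between the arms of 1 hairpin therefore cannot be told apart. The ratio of 5p to 3p differed by at least 1.5-fold in 2 of them. For miR-9 it was 0.161 in female brain and 0.102 in male brain, 1.57 times as high in female brain. miR-9-5p had 5222 RPM in female brain and 3602 RPM in male brain (1.45), and miR-9-3p the ratio of 0.92 given above. For miR-19 the ratio of 5p to 3p was 2.51 in female brain and 4.79 in male brain (0.52), with miR-19-3p the more unequal arm. miR-129 followed, at 0.717 in female brain and 1.02 in male brain (0.70). miR-129-3p had 1630 RPM in female brain and 1090 RPM in male brain (1.496), and miR-129-5p 1169 RPM in female brain and 1113 RPM in male brain (1.05). The 5p to 3p ratio of miR-181 was 115.7 in female brain and 118.7 in male brain. These ratios within a library do not depend on the scale.

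The ratio of a miRNA sequence moved with its base composition. Of the 881 fully read miRNA sequences listed in both brains, the 246 with under 38% G and C had a median female to male ratio of 1.39, and 30 of them were at least 2-fold higher in female brain. The median was 1.25 for 254 sequences with 38% to under 45%, 1.17 for 177 with 45% to under 50%, and 1.13 for 204 with 50% or more, of which 5 were at least 2-fold higher. These sequences include many forms of the same arms. Over the 87 arms, by the top sequence of each, the order was not steady. The median was 1.40 in 21 arms with under 38% G and C and 1.17 in 26 with 38% to under 45%. It was 1.13 in 13 arms with 45% to under 50% and 1.15 in 27 arms with 50% or more. The ratio differed between bands of level without a steady order. The 340 sequences with a mean below 20 RPM had a median of 1.23 with 23 at 2-fold, the 308 from 20 to under 100 RPM a median of 1.29 with 27, and the 188 from 100 to under 1000 RPM a median of 1.18 with 6. The 45 sequences with a mean of 1000 RPM or more had a median of 1.10 with 0 at 2-fold. By length, the median of the 881 sequences rose from 1.15 at 20 nt to 1.22 at 21 nt, 1.25 at 22 nt and 1.27 at 23 nt. Among the arms above, miR-451-5p (34.8% G and C) and miR-9-5p (36.4%) lie below 38%, and miR-19-3p (40.9%) lies in the next band. miR-205-5p (52.2%) and miR-9-3p (31.8%) run against the trend. Of the 27 arms with 50% or more, 5 (18.5%) were at least 1.5-fold higher in female brain, miR-92-3p (54.5%) among them. Below 38% it was 6 of 21 arms (28.6%). The part of base composition in the differences between the brains was not tested.

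**Figure D5:**
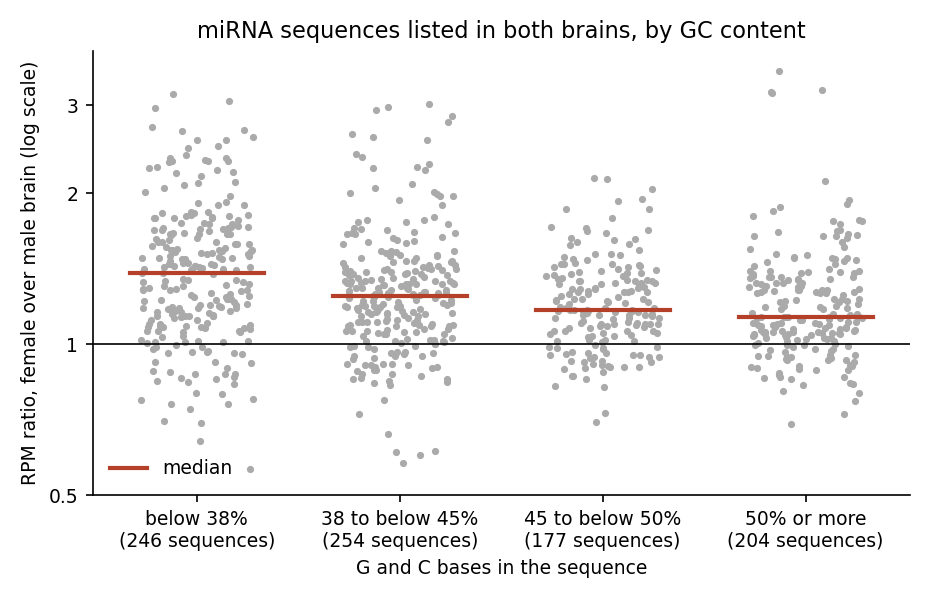
RPM ratio of female brain over male brain (log scale) for 881 fully read miRNA sequences listed in both brains, 1 point each, by the share of G and C bases. Bars mark the median of each band, which is 1.39 below 38% and 1.13 at 50% or more.

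Outside the miRNA arms, 16 shared sequences were at least 2-fold higher in female brain, 11.2% of the shared sequences without an arm, beside 7.02% of all 1026. Sequences matched to ribosomal RNA summed to 1111 RPM in female brain and 734.2 RPM in male brain (1.51), those matched to transfer RNA to 900.8 RPM in female brain and 724.2 RPM in male brain (1.24), and those matched to adapter to 256.0 RPM in female brain and 211.2 RPM in male brain (1.21). Only low-level arms were listed in 1 brain alone, 6 in female brain and 3 in male brain. In female brain miR-203-3p was the highest of them and miR-184-3p followed with 15.5 RPM. In male brain miR-462-5p was the highest, with 10.96 RPM. The others there, miR-214-3p (7.41 RPM) and miR-17-3p (6.57 RPM), lay below the female minimum of 8.03 RPM, so their lack of an entry in female brain cannot show a difference. Of the 32 arms with at least 50 RPM in both organs, 6 were at least 1.5-fold higher in female brain, and 1 of these 6 was also at least 1.5-fold higher in female liver. Over all 32, 4 were at least 1.5-fold higher and 17 at least 1.5-fold lower in female liver, with a median female to male ratio of 0.60 in liver and 1.16 in brain.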

How the data were processed

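Small RNA was gel-purified from DNase-treated total RNA of pooled tissue, joined to adapters and amplified in 12 PCR cycles, per the labels' protocols. CASAVA 1.7.0 is the tool named in the submitters' processing notes. Which aligner, trimming and annotation were used is not given in the sources used here. The deposited files list exact sequences, their length in nt and an expression value. The values were taken as RPM made by the authors, since each deposited value came out as a whole number of reads, within 0.02, under 1 total for each library. That total served for intervals alone. File headers name no unit.

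Sequences were assigned to arms by 18 letters of 177 hand-written references (159 for miRNAs), with at most 2 mismatches, a 5′ shift of at most 3 nt and at least 15 letters compared. In female brain 110 sequences and in male brain 121 stayed unassigned. Paralogues were summed. No genome or miRNA table was at hand, so no positions are given. The comparison, the lists and the references were chosen with earlier results of these data known. Arms and sequences were named by level, by ratio and by list. The bands of base composition, level and length, the forms 1 nt shorter and the miR-9-3p forms were chosen after values were seen. Ratios were computed with Python 3.11.15, NumPy 2.4.6 and SciPy 1.17.1; assignment and intervals were tested on simulated data.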

Additional observations from a re-analysis of the deposited data

Results flagged for a closer look

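miR-221-3p was 1.504-fold higher in female than in male brain, and 1.4945-fold over its shared sequences. It ran the opposite way in liver, with 18.7 RPM in female liver and 98.2 RPM in male liver (0.19). Low female values were general in liver, where the median female to male ratio of the 32 arms shared with brain was 0.60 and 17 of them were at least 1.5-fold lower in female liver. The difference between the organs was not tested, since each group is 1 library.

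Sequences that matched no miRNA arm were kept at 50 RPM or more in the higher brain. Of these, 8 were listed in both brains and were at least 2-fold higher in female brain. Only a match to ribosomal RNA (171.3 RPM in female brain and 72.4 RPM in male brain) also reached 50 RPM in male brain. The others entered the count through the brain where they are higher. A share at this minimum was not computed. With no minimum, 11.2% of shared sequences without an arm were at least 2-fold higher in female brain, beside 7.02% of all 1026. A group with no match to the references started with tTACAATTaaaggatatttc. Its sequences had ratios of 3.01, 2.94 and 2.40, the highest with 117.6 RPM in female brain and 39.1 RPM in male brain. Other unmatched sequences had ratios of 2.64 (120.0 RPM in female brain and 45.5 RPM in male brain) and 2.54 (73.5 RPM in female brain and 28.9 RPM in male brain). Matches to ribosomal RNA had ratios of 2.37 and 2.09, and a match to transfer RNA a ratio of 2.39. A further match to ribosomal RNA was listed in female brain alone, at 97.1 RPM.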

How the results depend on the processing

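The number of shared sequences past 2-fold, 72 in deposited RPM, was 36 under median-of-ratios scaling, 26 with a minimum of 50 RPM and 23 with a pseudocount of 10. The median ratio of all 1026 shared sequences, 1.23 in deposited RPM, was 1.12 at equal miRNA sums and 1 by construction under median-of-ratios scaling. It was 1.22 with a minimum of 50 RPM and 1.16 with the pseudocount. The number of arms past 1.5-fold, 18 in deposited RPM, was 9 under median-of-ratios scaling and 33 with no minimum and unlisted values at the listing minimum; the number past 2-fold, 4 in deposited RPM, was 8 with no minimum, 2 with unlisted values at the listing minimum and 2 with sequences listed in both brains alone. The median ratio of the arms, 1.19, was 1.08 at equal miRNA sums, 0.962 under median-of-ratios scaling, 1.22 with no minimum, 1.21 with 0 mismatches and 1.202 with sequences listed in both brains alone. The difference in mean length, -0.028 nt, was 0.0052 nt with shared sequences alone and 0.0061 nt without the miR-29-3p sequence of male brain. The number of starts with a shift of 0.25 nt or more, 3, was 1 with shared sequences alone and 1 with 500 RPM in each library; the number of hairpins past 1.5-fold, 2, was 1 with 500 RPM. Of all 87 arms, 37 changed their side of 1 under median-of-ratios scaling and 17 at equal miRNA sums; of the 18 past 1.5-fold, 6 and 10 stayed past it. Among the 28 arms highest in level or most unequal, 1, miR-29-3p, changed its side of 1 with shared sequences alone. The alternatives that left out sequences with an unread base, or that used shared sequences alone for arms, were chosen after seeing the data. No paired analysis was possible because each sex has 1 library and the labels carry no replicate numbers. Depth limits sequences below the listing minima, and 1 library per sex limits every comparison.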
